A study of Mus musculus with 8 samples.

Results

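ATP-binding cassette (ABC) genes were examined in the hepatic macrophages of mice given recombinant CPS1 or transferrin ahead of acetaminophen. A gene was counted as a member when an array row carried exactly 1 gene symbol that begins with Abc, a subfamily letter from a to g and a digit. Where a gene has several rows the one of highest mean over the 8 arrays was to be used, but each of the 48 members had 1 row, so no row had to be chosen. These 48 genes were read out of 22180 genes with 1 symbol. Tap1, Tap2 and Cftr belong to the family under other symbols and were read beside the members.

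Each of 2 groups held 4 Affymetrix arrays of total RNA from hepatic macrophages of male FVB/N mice aged 8 weeks. All mice received 350 mg/kg acetaminophen, a drug whose overdose kills hepatocytes, into the peritoneum, and no group without acetaminophen was included here. The rTF group had received 25 µg of recombinant transferrin, the iron carrier of plasma, and the rCPS1 group 50 µg of recombinant CPS1 (carbamoyl phosphate synthetase 1, a urea cycle enzyme of hepatocyte mitochondria), each through the tail vein 12 h earlier. The protein and its amount therefore differed together. How the macrophages were isolated, and when, was not given in the sources used here. All titles read Mouse1, so whether replicates came from separate mice is not settled, and the p-values here speak of variation among these 8 samples, and that variation may be technical.

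The array medians lay between 3.55 and 3.68 on the log2 scale. On the first principal component of all rows (21.5% of the variance) rTF replicate 2 stood at 78.3 and the other arrays between -36 and 7.45. Without that array the log2 difference turned sign for 6 members, Abca1 (-0.19), Abcb11 (-0.030), Abcc1 (-0.035), Abcd3 (0.032), Abce1 (0.013) and Abcg4 (-0.12). Signs turned without other arrays too, for example Abca1 (-0.16), Abcc12 (0.048) and Abcg1 (-0.034) without rCPS1 replicate 3. Such turns were thus not particular to rTF replicate 2. The 16 Kupffer cell markers, Clec4f and Timd4 among them, all lay above the median array row (3.60), and so did all 12 markers of sinusoidal endothelium. This was not particular to these cells, as all 13 monocyte and all 10 stellate cell markers lay above it too. Of the other lists, 2 of 18 hepatocyte, 1 of 13 neutrophil and 1 of 12 T and NK cell markers did not. Nor did 2 of 5 measured bile duct and 3 of 4 measured red cell precursor markers. Among the 13 neutrophil markers 13 were lower with rCPS1, with list means of 6.21 to 6.92 in rTF arrays and 5.06 to 5.92 in rCPS1 arrays. For the 13 monocyte markers the list means were 8.12 to 8.25 and 7.65 to 7.82, with 11 lower. Their part in the differences of the ABC genes was not tested. In such bulk RNA fewer cells of a type and less RNA per cell cannot be told apart.

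ABC proteins couple the binding and hydrolysis of ATP to the movement of lipids, bile salts, drug conjugates, peptides and metabolites across membranes. In macrophages Abca1 and Abcg1 hand cholesterol to apolipoprotein A-I and to high-density lipoprotein, and both genes are targets of the liver X receptors (LXR), which sense oxysterols. In hepatocytes other members form the export step for bile salts, phospholipid, sterols and drug conjugates, those of acetaminophen included. Subfamilies E and F lack membrane domains and act in translation.

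The sequence before the start of transcription is shown for 3 members: Abca4, which had the largest difference upwards, Abcc2, which had the largest downwards, and Abca1, the sterol exporter with a known LXR element. RefSeq promoter windows (GRCm38.p6) were on hand for 38 of the 48 members, and the 250 bases upstream of the start are printed 5′ to 3′ on the gene's strand. Capitals mark matches to CACGTG (an E-box), AGGTCA (a nuclear receptor half-site), GGGCGG (a GC box), TATAAA, or the spaced repeat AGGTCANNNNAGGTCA of LXR elements with up to 3 mismatches, on either strand.
Abca4 (chr3:122044210-122044459, plus strand): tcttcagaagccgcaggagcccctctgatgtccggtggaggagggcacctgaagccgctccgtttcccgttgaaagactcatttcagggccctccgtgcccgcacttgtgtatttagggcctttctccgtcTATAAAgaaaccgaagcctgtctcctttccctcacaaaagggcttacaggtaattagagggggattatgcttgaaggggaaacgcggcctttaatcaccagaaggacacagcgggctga
Abcc2 (chr19:43782058-43782307, plus strand): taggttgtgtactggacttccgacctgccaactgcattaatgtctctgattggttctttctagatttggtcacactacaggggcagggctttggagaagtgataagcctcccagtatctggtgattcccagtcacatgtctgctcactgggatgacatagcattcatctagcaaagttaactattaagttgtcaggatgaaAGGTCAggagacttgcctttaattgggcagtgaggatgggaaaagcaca
Abca1 (chr4:53159896-53160145, minus strand): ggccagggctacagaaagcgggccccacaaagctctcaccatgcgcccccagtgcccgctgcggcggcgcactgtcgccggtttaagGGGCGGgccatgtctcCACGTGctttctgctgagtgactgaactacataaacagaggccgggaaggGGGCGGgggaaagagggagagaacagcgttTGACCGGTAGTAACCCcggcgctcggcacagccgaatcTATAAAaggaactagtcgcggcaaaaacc
The Abca1 window held an E-box, a pair of GC boxes, a TATAAA at positions -29 to -24 from the start and, on the other strand at -67 to -52, a spaced repeat with 3 mismatches. At that allowance the repeat occurs in 18.5% of the 32851 windows of this length, so the match is a description only. The Abcc2 window held 1 half-site at -49 to -44 and the Abca4 window 1 TATAAA, at -119 to -114. The half-site occurs in 14.0% of all windows, TATAAA in 12.4%, the GC box in 32.7% and the E-box in 6.02%. These are letters in a window and not measured binding.

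As a family the ABC genes showed no common difference between the groups. Of the 48 members 22 were higher and 26 lower with rCPS1, where 45.6% of all genes were higher, and the median log2 difference was -0.012, against -0.018 over all 22180 genes. No member passed limma's test after Benjamini-Hochberg adjustment over all genes (adjusted p between 0.862 and 0.999), and neither did any other gene on the array (0%). At an unadjusted p under 0.05 there were 2 members, Abca4 (higher) and Abcc2 (lower), which is 4.17% of the members against 4.67% of all genes (1.88% higher and 2.79% lower). The groups did not overlap for 3 members, Abca4 and Abcb6 (higher) and Abca16 (lower), or 6.25% against 2.92% of all genes (0.947% higher and 1.97% lower). A difference of 0.2 or more either way was seen for 11 members (22.9%), against 24.9% of all genes. The first and the last of these shares are near those of the whole array, and the shares without overlap rest on 3 genes. The count at an unadjusted p under 0.05 was 5 without rTF replicate 1, when Abca6, Abcb9 and Abcc5 joined and 5.59% of all genes were at that p. It was 1, Abca4, without rTF replicate 3 (all genes 5.01%) or without rTF replicate 4 (4.67%). Without rTF replicate 1 the groups did not overlap for 6 members (12.5%, against 6.33% of all genes), and without rCPS1 replicate 3 for 5 (10.4% against 5.13%). With each other array left out the members' share was 6.25% or 8.33%, against 4.93% to 6.13% of all genes. The shares were closest without rTF replicate 3 (6.25% against 5.94%).

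**Figure D1:**
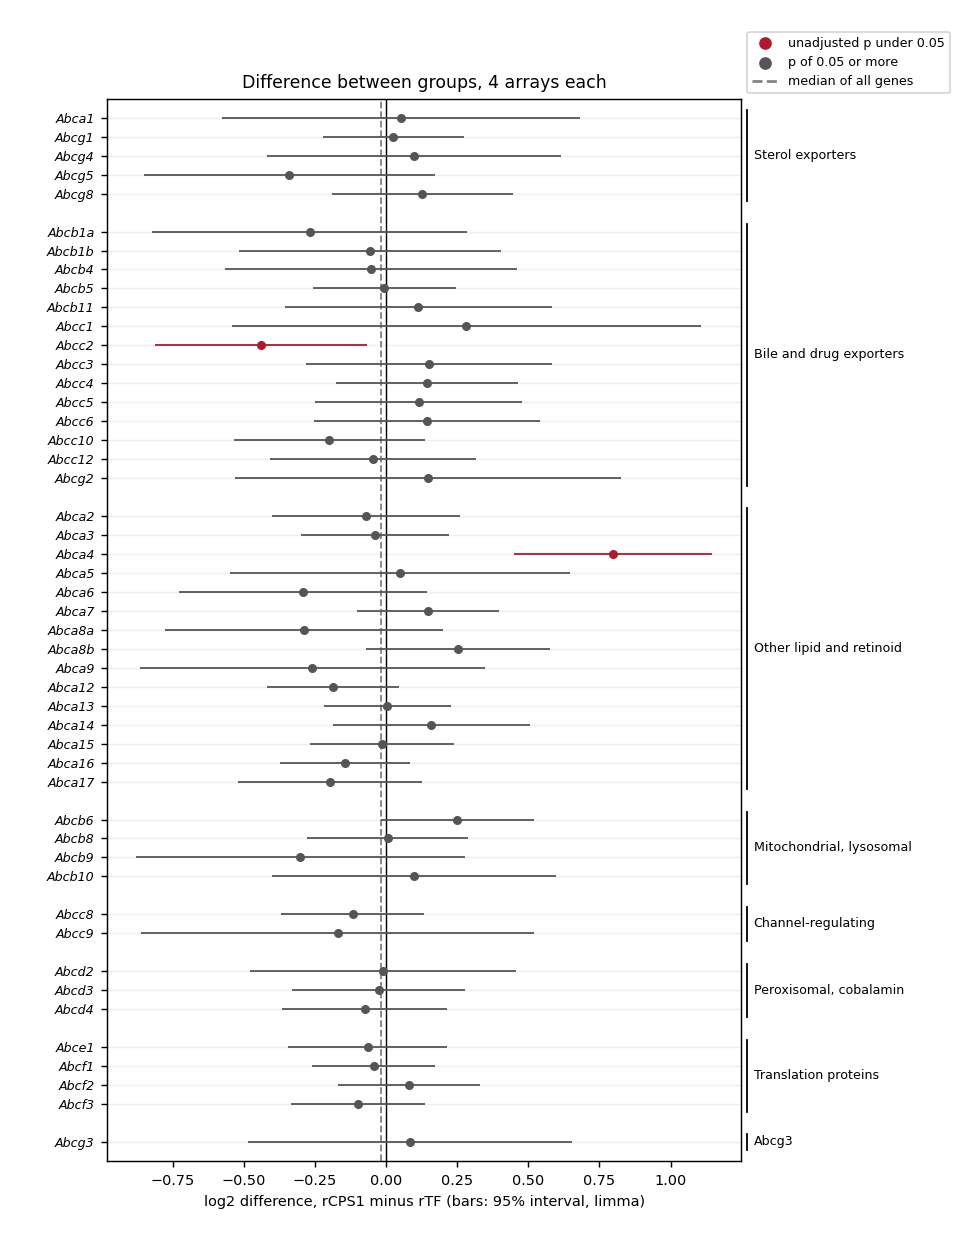
Difference between the groups for the 48 ABC genes, by role. Points give the log2 difference (rCPS1 minus rTF, 4 arrays each) and bars the 95% interval from limma. The intervals of Abca4 and Abcc2, in red, leave out 0, and the dashed line at -0.018 is the median of all genes.

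On the array's own scale 32 members (66.7%) lay above the median array row, against 55.8% of all genes. The 16 dimmer members are Abca8a, Abca8b, Abca12 to Abca17, Abcb5, Abcb11, Abcc6, Abcc8, Abcc12, Abcg4, Abcg5 and Abca6. A probe's brightness depends on its sequence as well as on RNA, so the levels of different genes are not set against each other.

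**Figure D2:**
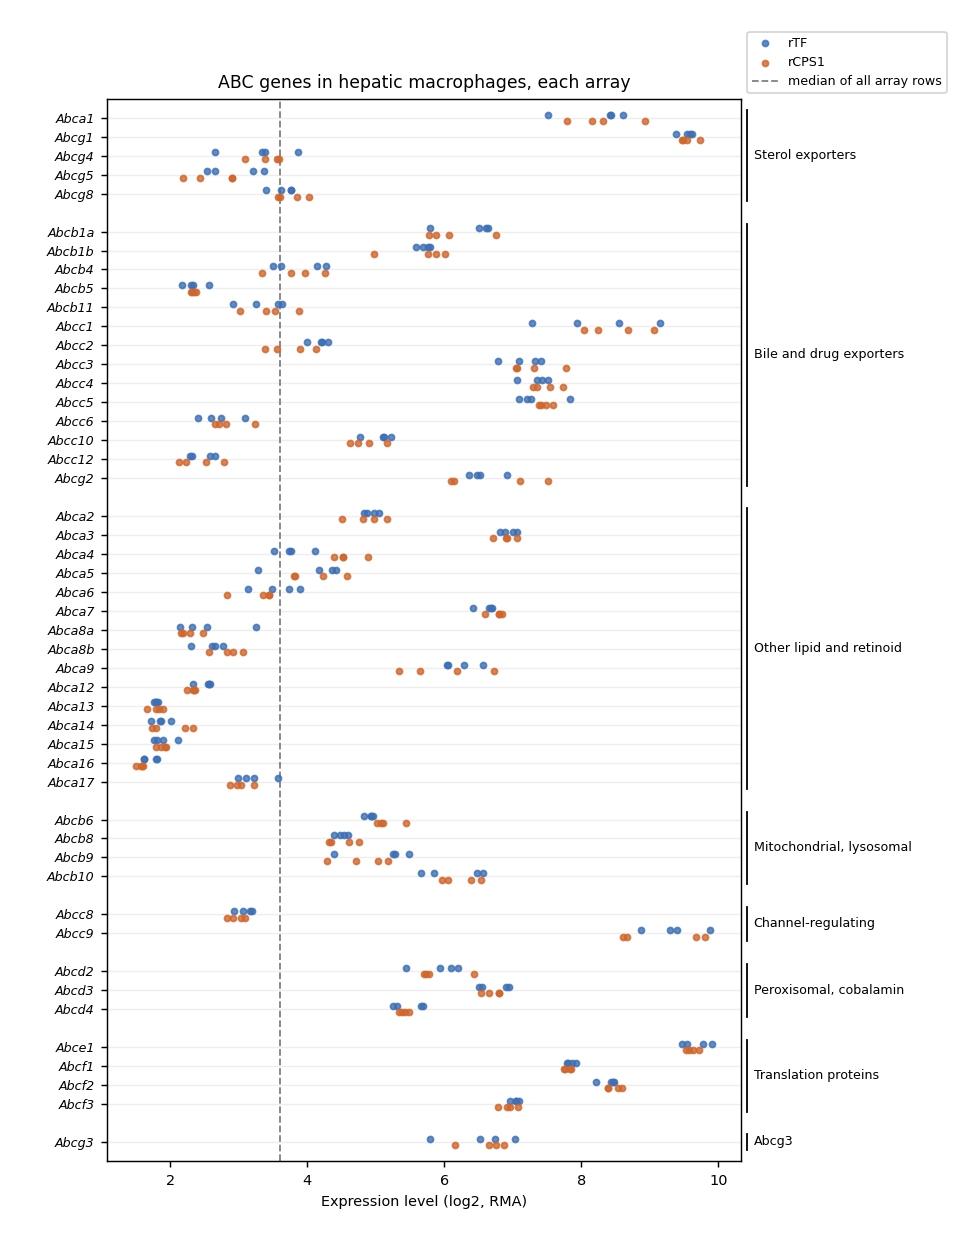
Log2 level (RMA) of each ABC gene in each of the 8 arrays, grouped by role, with rTF in blue and rCPS1 in orange. The dashed line at 3.60 is the median of all array rows, and 32 of the 48 genes have a mean above it.

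For the sterol exporters no difference between the groups exceeded the spread between arrays. Of the 5 genes 4 were higher and 1 lower with rCPS1, none with an unadjusted p under 0.05 in limma's test, and their median log2 difference was 0.052. Abca1 (probe set 17425301), which loads cholesterol onto apolipoprotein A-I, read 8.62, 7.51, 8.43 and 8.42 (log2 level) in rTF replicates 1 to 4 and 7.79, 8.32, 8.93 and 8.16 in rCPS1 replicates 1 to 4. The groups overlapped, with rTF replicate 2 lowest of all and rCPS1 replicate 3 highest, and the log2 difference was 0.052 ± 0.28 (SE; 95% interval -0.58 to 0.68). Abcg1, the partner exporter to high-density lipoprotein, read 9.62, 9.54, 9.38 and 9.58 with rTF and 9.47, 9.48, 9.73 and 9.54 with rCPS1. Its arrays lay within a narrow band and its difference was 0.025 ± 0.11, with an interval of -0.22 to 0.27. Abcg1 was thus bounded more tightly than Abca1, whose within-group SD was 0.49 against 0.11 for Abcg1. Without rTF replicate 2 the Abca1 difference was -0.19 and the median of the 5 genes -0.12, and without rCPS1 replicate 3 they were -0.16 and -0.034, so both turned sign with either array left out.

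For Abcg4, Abcg5 and Abcg8 the groups overlapped as well. Abcg4, a close relative of Abcg1, read 3.33, 2.66, 3.87 and 3.38 in rTF arrays and 3.09, 3.56, 3.59 and 3.39 in rCPS1 arrays, a difference of 0.097 ± 0.23. Abcg5 and Abcg8 pair to form 1 exporter that moves sterols into bile, and their RefSeq start windows of 300 bases overlap by 209 bases on opposite strands. Abcg5 read 2.54, 3.20, 2.65 and 3.37 with rTF and 2.89, 2.44, 2.90 and 2.18 with rCPS1 (-0.34 ± 0.23). Abcg8 read 3.76, 3.39, 3.62 and 3.77 and 4.03, 3.57, 3.85 and 3.60 (0.13 ± 0.14). The pair thus had differences of opposite sign, neither with an unadjusted p under 0.05, and the Abcg5 row lay below the median array row.

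Genes that work with the sterol exporters had differences on both sides of 0. Of 16 measured partners of sterol efflux 7 were higher and 9 lower, 0 had an unadjusted p under 0.05, and the median difference was -0.012. Nr1h3, which encodes LXR alpha, read 7.12, 6.80, 6.51 and 6.96 with rTF and 7.23, 6.58, 6.86 and 6.86 with rCPS1 (0.034 ± 0.17). Apoe, an apolipoprotein that macrophages secrete and an LXR target, read 7.84, 8.06, 7.81 and 7.73 and 7.79, 7.95, 7.75 and 7.75 (-0.052 ± 0.11). The groups overlapped for both. Npc2, which carries cholesterol inside lysosomes, was at 10.25, 10.31, 10.22 and 10.29 with rTF and 10.20, 10.09, 10.04 and 10.08 with rCPS1. These Npc2 groups did not overlap, with all rCPS1 arrays lower, and the difference was -0.16 ± 0.097 (unadjusted p = 0.127). Lcat, the enzyme that esterifies cholesterol on high-density lipoprotein, read 6.58, 6.10, 7.09 and 6.42 and 6.85, 6.78, 6.81 and 6.71 (0.24 ± 0.19), with the rCPS1 arrays inside the rTF range. Nr1h2 and Soat1 were not analysed here.

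Among bile and drug exporters, 7 of 14 genes were higher and 7 lower, with a median log2 difference of 0.054. That median was below 0 with rTF replicate 2 (-0.024), rCPS1 replicate 1 (-0.013) or rCPS1 replicate 2 (-0.022) left out, and it was 0.13 without rCPS1 replicate 4. Abcc2 (probe set 17359636), the canalicular exporter of conjugates such as those of bilirubin and acetaminophen, was the one member of this set with an unadjusted p under 0.05. It read 4.21, 3.997, 4.30 and 4.21 (log2 level) in the rTF arrays and 3.89, 3.56, 4.13 and 3.38 in the rCPS1 arrays. The rTF arrays lay close together and 3 of the 4 rCPS1 arrays lay below all of them, with rCPS1 replicate 3 inside their range. The log2 difference was -0.44 ± 0.17 (SE), or 1.36-fold lower with rCPS1, with an unadjusted limma p of 0.0251, an adjusted p of 0.98 and a two-sided exact permutation p of 0.0571. Without rCPS1 replicate 4 the difference was -0.32 (unadjusted p = 0.0735, limma), and it also missed 0.05 without rTF replicate 3, rTF replicate 4 or rCPS1 replicate 2. The 18 hepatocyte markers had list means of 6.68 ± 0.24 with rTF and 6.68 ± 0.27 with rCPS1 (SD, n = 4 each). With that mean as a covariate the Abcc2 difference was -0.44, but a covariate almost equal in both groups can hardly move it. The markers' own differences ran from -0.55 to 0.49, with 9 higher and 9 lower. A hepatocyte share in the Abcc2 difference was not tested.

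The canalicular transporters of bile salts and phospholipid had differences smaller than their errors. Abcb11, the bile salt export pump, read 3.63, 2.91, 3.58 and 3.25 with rTF and 3.88, 3.53, 3.39 and 3.02 with rCPS1 (0.11 ± 0.21). Abcb4, which flips phosphatidylcholine into bile, read 4.27, 3.62, 3.49 and 4.14 and 3.97, 3.76, 4.25 and 3.34 (-0.051 ± 0.23). Both sets of arrays overlapped through most of their range, and the Abcb11 row lay below the median array row. Abcb1a and Abcb1b are the mouse genes of P-glycoprotein, the efflux pump for many drugs, and lie next to Abcb4 in the genome. Abcb1a read 5.79, 6.61, 6.51 and 6.64 with rTF and 6.07, 5.87, 6.75 and 5.78 with rCPS1 (-0.27 ± 0.25). Abcb1b read 5.69, 5.58, 5.77 and 5.79 and 5.88, 6.01, 5.76 and 4.97 (-0.055 ± 0.21). rTF replicate 1 was low for Abcb1a and rCPS1 replicate 4 for Abcb1b, and the similar sequences of this pair may not be fully separated by the array. Abcb5, a dim relative, read 2.56, 2.31, 2.33 and 2.17 with rTF and 2.32, 2.37, 2.31 and 2.35 with rCPS1 (-0.0058 ± 0.11).

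The conjugate exporters of subfamily C other than Abcc2 lay on both sides of 0. Abcc1, which exports glutathione conjugates and leukotriene C4, read 9.14, 7.28, 8.56 and 7.93 with rTF and 8.05, 9.07, 8.68 and 8.25 with rCPS1. It had the widest spread of any member, with a within-group SD of 0.65 (above 98.6% of all genes), and its difference of 0.28 ± 0.37 became -0.035 without rTF replicate 2 and 0.59 without rTF replicate 1. Abcc3, which returns conjugates to the blood side of hepatocytes, read 7.41, 7.09, 6.78 and 7.33 and 7.31, 7.05, 7.77 and 7.07 (0.15 ± 0.19). Abcc4, an exporter of cyclic nucleotides and prostaglandins, read 7.35, 7.06, 7.51 and 7.43 and 7.36, 7.74, 7.29 and 7.55 (0.14 ± 0.14). Neither of these genes separated the groups. Abcc5, another exporter of cyclic nucleotides, read 7.84, 7.09, 7.21 and 7.26 and 7.42, 7.48, 7.59 and 7.38. Its difference was 0.11 ± 0.16, and without rTF replicate 1, its highest array, 0.28 (unadjusted p = 0.0374, limma).

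Abcc6, known for ATP release from hepatocytes, read 2.40, 2.75, 3.09 and 2.59 with rTF and 2.71, 2.65, 3.23 and 2.81 with rCPS1 (0.14 ± 0.18). Abcc10, a drug exporter, read 4.77, 5.23, 5.12 and 5.10 and 4.74, 5.17, 4.89 and 4.63 (-0.20 ± 0.15). Abcc12 read 2.29, 2.58, 2.65 and 2.32 and 2.78, 2.52, 2.13 and 2.22 (-0.046 ± 0.16). The groups overlapped for all these genes, and the rows of Abcc6 and Abcc12 lay below the median array row. Abcg2, which exports urate, porphyrins and many drugs, read 6.52, 6.47, 6.91 and 6.36 in rTF arrays and 6.14, 7.51, 7.11 and 6.10 in rCPS1 arrays. The rCPS1 arrays formed a high pair (replicates 2 and 3) and a low pair (replicates 1 and 4) on either side of all rTF arrays, and the difference of 0.15 ± 0.30 was smaller than that spread.

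Of 14 measured genes of bile acid and drug handling outside the family, 10 were higher and 4 lower with rCPS1, and 2 had an unadjusted p under 0.05, both higher, where 1.88% of all genes were higher at that p. Cyp7a1, the rate-limiting enzyme of bile acid synthesis, read 3.22, 3.71, 3.39 and 3.50 with rTF and 4.59, 3.56, 4.08 and 3.91 with rCPS1 (0.58 ± 0.21, unadjusted p = 0.0185, limma). Slc10a1, the bile salt uptake carrier of hepatocytes, read 5.16, 5.05, 5.26 and 4.81 and 5.60, 5.20, 5.33 and 5.41 (0.31 ± 0.14, unadjusted p = 0.0437, limma). The groups overlapped for both, and Abcc2 had the opposite sign. Nr1h4, the bile acid receptor FXR, read 5.14, 4.51, 4.57 and 4.63 with rTF and 5.60, 5.10, 5.46 and 4.46 with rCPS1 (0.44 ± 0.25). Nr1i2, the drug-sensing receptor PXR, read 5.48, 4.82, 4.33 and 4.53 and 5.002, 5.11, 5.44 and 3.92 (0.080 ± 0.33). Both were lowest among rCPS1 arrays in replicate 4, and their adjusted p-values were 0.98 and 0.989. The list's median difference was 0.11, against -0.018 over all genes.

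Abca4 (probe set 17402222), which moves retinoid conjugates across disc membranes of photoreceptors, had the largest difference of any member. Its level was 3.74, 3.51, 3.76 and 4.11 in rTF replicates 1 to 4 and 4.52, 4.52, 4.88 and 4.39 in rCPS1 replicates 1 to 4. Every rCPS1 array lay above every rTF array, with group means of 3.78 ± 0.25 and 4.58 ± 0.21 (SD, n = 4 each). The log2 difference was 0.80 ± 0.16 (SE), or 1.74-fold higher with rCPS1, with an unadjusted limma p of 0.000474 that became 0.862 after Benjamini-Hochberg adjustment over all genes. The two-sided exact permutation p was 0.0286, the smallest that 4 against 4 arrays allow. Every gene whose groups do not overlap has that p, Abcb6 and Abca16 included, so it only restates the separation. Across the alternatives the difference ran from 0.70 to 0.91 and kept an unadjusted p under 0.05, with adjusted p from 0.611 to 0.999. The row stands near the middle of all rows on these arrays, above 57% of them.

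**Figure D3:**
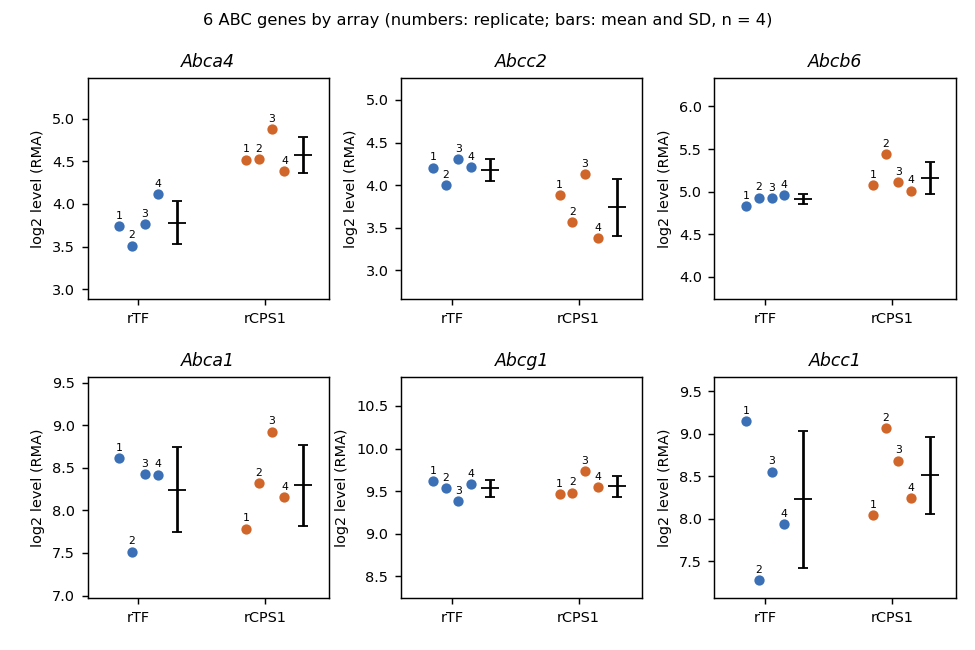
Log2 level of 6 ABC genes in each array, with replicate numbers above the points and the mean and SD of 4 arrays beside them. All panels span the same range of log2 units. Abca4 and Abcb6 separate the groups, Abcc2 does so apart from rCPS1 replicate 3, and Abca1 and Abcc1 spread widely within each group while Abcg1 does not.

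The other lipid transporters of subfamily A showed small differences in both directions. Of the 15 genes in this set, Abca4 included, 6 were higher and 9 lower, with a median of -0.040. Abca6 had the largest lower value of the subfamily, with levels of 3.13, 3.74, 3.89 and 3.48 in rTF arrays and 3.36, 3.44, 3.44 and 2.83 in rCPS1 arrays (-0.29 ± 0.20). Without rTF replicate 1 the Abca6 difference was -0.43 (unadjusted p = 0.0401, limma). Abca5, Abca6, Abca8a, Abca8b and Abca9 stand in a row in the genome, and they did not differ together. Abca8b was higher (0.25 ± 0.14), Abca8a and Abca9 were lower (-0.29 ± 0.22 and -0.26 ± 0.27) and Abca5 stood at 0.048 ± 0.27, none with an unadjusted p under 0.05. Without rCPS1 replicate 2 the Abca8b difference was 0.35 and without rCPS1 replicate 3 the Abca9 difference was -0.51, each then with an unadjusted p under 0.05. Without rCPS1 replicate 3 the median of this set was -0.11.

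Abca7, a phospholipid transporter linked to phagocytosis in macrophages, ran from 6.42 to 6.69 with rTF and from 6.60 to 6.84 with rCPS1, a difference of 0.15 ± 0.11. Abca3, which fills the lamellar bodies of lung surfactant, differed by -0.040 ± 0.12, and Abca2, a lipid transporter of endosomes and lysosomes, by -0.070 ± 0.15. The intervals of these genes, -0.10 to 0.40, -0.30 to 0.22 and -0.40 to 0.26, all held 0. Abca16 read 1.81, 1.62, 1.79 and 1.62 with rTF and 1.59, 1.50, 1.61 and 1.57 with rCPS1. Its groups did not overlap, but the difference was -0.14 ± 0.10 (unadjusted p = 0.193, limma) and the row was among the dimmest, above only 7.99% of all rows. Its neighbours Abca14 and Abca15 differed by 0.16 ± 0.16 and -0.014 ± 0.11. Abca12, which loads lipid into the barrier of the skin, differed by -0.19 ± 0.10, Abca13 by 0.0037 ± 0.10 and Abca17 by -0.20 ± 0.14, and the rows of all these genes lay below the median array row.

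Among the transporters of mitochondria and lysosomes, Abcb6 was higher in every rCPS1 array. Abcb6, which is linked to porphyrin handling, read 4.83, 4.93, 4.93 and 4.96 with rTF and 5.08, 5.44, 5.11 and 5.01 with rCPS1. The gap between the groups was narrow and rCPS1 replicate 2 stood highest, with a difference of 0.25 ± 0.12 and an unadjusted limma p of 0.0641. Without rCPS1 replicate 4 it was 0.30 (unadjusted p = 0.0464) and without rCPS1 replicate 2 0.16. Abcb10, a mitochondrial protein that red cell precursors need for heme synthesis, differed by 0.098 ± 0.22, and Abcb8, of the inner mitochondrial membrane, by 0.0066 ± 0.13. Abcb9, a peptide transporter of lysosomes, read 4.39, 5.49, 5.25 and 5.28 with rTF and 5.17, 4.29, 4.71 and 5.03 with rCPS1. Its groups overlapped because rTF replicate 1 was low, and its difference was -0.30 ± 0.26, or -0.54 without that array (unadjusted p = 0.0283, limma). The 4 measured red cell precursor markers had list means of 3.14 to 3.97 with rTF and 3.29 to 3.50 with rCPS1, and 3 of the 4 lay below the median array row.

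The peptide transporter genes of antigen presentation, ABC genes under other symbols, both had a higher mean with rCPS1. Tap2, a subunit of the pump that feeds peptides to class I molecules, read 7.31, 7.35, 7.37 and 7.58 with rTF and 7.70, 7.48, 7.70 and 7.87 with rCPS1. All rCPS1 arrays but replicate 2 lay above the rTF range, and the difference was 0.28 ± 0.12 (unadjusted p = 0.0394, limma adjusted p = 0.98). Tap1, its partner, read 10.18, 10.07, 10.38 and 10.61 and 10.69, 10.25, 10.39 and 10.86 (0.24 ± 0.17, unadjusted p = 0.187, limma). The chloride channel gene Cftr, on a row below the median array row, read 1.70, 1.62, 1.39 and 2.08 and 1.58, 1.51, 1.63 and 1.59 (-0.12 ± 0.15).

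Abcc8 and Abcc9 encode the sulfonylurea receptors, subunits of ATP-gated potassium channels and not exporters. Abcc9 read 9.30, 8.87, 9.88 and 9.39 with rTF and 8.61, 9.81, 9.67 and 8.67 with rCPS1. Its rCPS1 arrays formed the same pairs as those of Abcg2, high in replicates 2 and 3 and low in replicates 1 and 4, and its difference of -0.17 ± 0.31 was well inside its within-group SD of 0.54. Abcc8 was dim and differed by -0.12 ± 0.11. In subfamily D, which imports very long chain and branched fatty acids into peroxisomes, all 3 measured genes were slightly lower. Abcd4, the lysosomal member that releases cobalamin, read 5.69, 5.66, 5.25 and 5.31 with rTF and 5.42, 5.48, 5.39 and 5.33 with rCPS1 (-0.075 ± 0.13). Abcd3 differed by -0.026 ± 0.14. Abcd2 read 5.44, 5.93, 6.10 and 6.20 and 5.73, 5.70, 6.43 and 5.77 (-0.010 ± 0.21). None of the 3 had an unadjusted p under 0.05.

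The members that act in translation varied little between arrays. Abce1, which splits ribosomes after termination, read 9.48, 9.91, 9.55 and 9.77 with rTF and 9.72, 9.62, 9.57 and 9.53 with rCPS1 (-0.065 ± 0.13). Abcf2 read 8.47, 8.22, 8.44 and 8.46 and 8.39, 8.60, 8.53 and 8.39 (0.080 ± 0.11). Abcf3 read 6.96, 7.09, 7.05 and 7.04 and 6.92, 7.08, 6.78 and 6.97 (-0.099 ± 0.11). The groups overlapped for each, and the 95% interval of the Abcf1 difference was -0.26 to 0.17. Abcf1 had a within-group SD of 0.057, the smallest among the members, where 0.789% of all genes were at or below that value. Abcg3, a member found in rodents, ran from 5.79 to 7.03 with rTF and from 6.15 to 6.86 with rCPS1 (0.084 ± 0.26).

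By letter, the median log2 difference was -0.027 for the 16 genes of subfamily A, -0.0058 for the 9 of B, 0.034 for the 10 of C, -0.026 for the 3 of D, -0.065 for Abce1, -0.043 for the 3 of F and 0.090 for the 6 of G. In subfamily G 5 of 6 genes were higher, Abcg5 being the exception, and none had an unadjusted p under 0.05. For subfamily A the median was 0.0050 without rCPS1 replicate 2, -0.071 without rTF replicate 1 and -0.13 without rCPS1 replicate 3. With 1 array left out the medians of B, C, D and E also turned sign, running from -0.030 to 0.059 for B, -0.031 to 0.077 for C, -0.10 to 0.026 for D and -0.13 to 0.013 for E. Those of F and G kept their sign, but that of G was 0.0065 without rCPS1 replicate 3. Without rTF replicate 2 the median of C was -0.020. No subfamily or role was tested as a set.

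Differences between arrays of the same group were larger than those between groups for several exporters. The median within-group SD of the members was 0.23, against 0.22 over all genes. Of the 48 members 9 stood at or above the 90th percentile of that SD over all genes, a larger share than among all genes. These were Abca1, Abca5, Abca9, Abcb1a, Abcb9, Abcc1, Abcc9, Abcg2 and Abcg3. Abcc1 and Abca1 were both lowest in rTF replicate 2, while their highest arrays differed, rTF replicate 1 for Abcc1 and rCPS1 replicate 3 for Abca1. Abcc9 and Abcg2 were both high in rTF replicate 3, rCPS1 replicate 2 and rCPS1 replicate 3. These arrays share a normalization, and the patterns are given as descriptions.

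**Figure D4:**
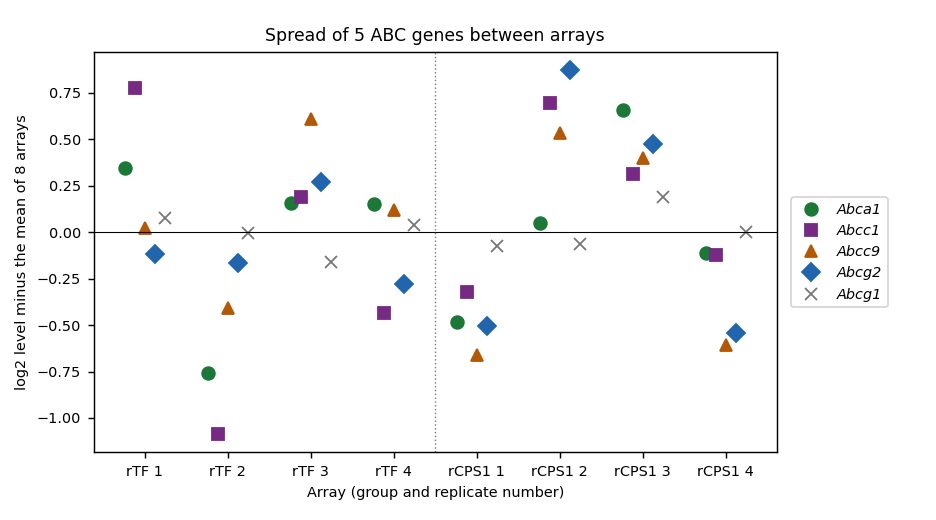
Log2 level minus the gene's mean over the 8 arrays for Abca1, Abcc1, Abcc9, Abcg2 and Abcg1, by array. Abca1 and Abcc1 dip in rTF replicate 2, Abcc9 and Abcg2 are low in rCPS1 replicates 1 and 4, and Abcg1 stays near 0 throughout.

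Markers of other liver cells were read in the same fit, with medians of the members' log2 differences. Of the 13 neutrophil markers 11 had an unadjusted p under 0.05, all lower (median -0.99), and so had 9 of 13 monocyte markers (median -0.39), against 2.79% of all genes. Among T and NK cell markers 11 of 12 were lower (median -0.50), 3 of them with an unadjusted p under 0.05. Their mean level stood at 7.47 in rTF replicate 2, above the 6.21 to 6.52 of replicates 1, 3 and 4. No marker of Kupffer cells (median 0.12), hepatocytes (-0.0053), sinusoidal endothelium (0.024), bile ducts (0.099), stellate cells (-0.19) or red cell precursors (-0.22) had an unadjusted p under 0.05. No marker of any list passed after adjustment over all genes.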

How the data were processed

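Total RNA from hepatic macrophages was labelled as biotinylated cDNA from 400 ng with the Affymetrix WT Plus kit and read on 8 arrays, per the labels' protocols. The deposited values are log2 expression levels made by the authors with RMA, per the submitters' processing notes, which also name limma and give no versions. RMA brings all arrays to a common distribution, which would hide a change common to most genes. The genome build and probe filters are not given in the sources used here.

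The table held 41345 rows, of which 23521 had 1 gene symbol in the platform annotation, 1814 several and 16010 none, and no Abc symbol lay on a row with several. By Entrez ID all 48 members matched RefSeq (GRCm38.p6), with 0 symbols changed. In R 4.3.3, limma 3.58.1 fitted all 22180 genes (two-sided, eBayes defaults, no covariate), with Benjamini-Hochberg adjustment over all of them at 0.05. The fit was tested on simulated data. No depth applies to arrays; the median SE of a gene's difference was 0.15. Groups came from the sample titles, and all arrays held different values.

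The members, roles, partner lists and marker lists were chosen with earlier results of these data known, so none is independent support. Levels in each array are given for sterol exporters, bile and drug exporters, members with an unadjusted p under 0.05 or without overlap, and the largest differences of each subfamily, with the 2 genes of smallest p of each partner list and Nr1h3, Nr1h4, Nr1i2, Apoe, Tap1, Tap2 and Cftr. The rule also covered the marker lists, but for these values over the whole list are given. Array by array, only the markers Lyve1 and Cyp2c29 are given, chosen after their values were seen. Alternatives were a filter on dim rows, trended and robust variance, array weights (statmod 1.5.0), the replicate number as a block, a repeated quantile normalization, averaging the rows of each gene, the mean of the hepatocyte markers as a covariate and each array left out in turn.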

Additional observations from a re-analysis of the deposited data

Results flagged for a closer look

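Dixon's ratio was computed for the extreme array of each group of 4, at the 95% critical value, which chance exceeds in about 1 of 20 groups. Of 96 groups of values 6 stood out, against 4.8 by chance. Abca12 was at 2.34 in rTF replicate 4 and at 2.55 to 2.58 elsewhere in its group. Abca6 was at 2.83 in rCPS1 replicate 4 and at 3.36 to 3.44 elsewhere in its group. Abca7 was at 6.42 in rTF replicate 3 and at 6.65 to 6.69 elsewhere in its group. Abcb1a was at 5.79 in rTF replicate 1 and at 6.51 to 6.64 elsewhere in its group. Abcd2 was at 6.43 in rCPS1 replicate 3 and at 5.70 to 5.77 elsewhere in its group. Abcf2 was at 8.22 in rTF replicate 2 and at 8.44 to 8.47 elsewhere in its group. Of these arrays 1 was rTF replicate 2. The low Abcb1a value in rTF replicate 1 bears on its difference, which was -0.27 with all arrays and -0.47 without that array.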

How the results depend on the processing

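With 4 arrays a group no adjusted call was made for an ABC gene or any other gene under any alternative run, so the calls say nothing about stability. With the replicate number as a block 2 members had an unadjusted p under 0.05, as without it (997 of all genes against 1035). Each number has 1 array in each group, so the block cannot move a difference. The members' median of -0.012 was thus fixed by the design. Deviations of same-numbered arrays from their group means correlated at -0.12 to 0.025 across genes, and no rTF array correlated best with the rCPS1 array of its number. With 1 array left out the count of members at that p ran from 1 to 5 (4% to 5.59% of all genes). The count without overlap ran from 3 to 6 (4.93% to 6.33% of all genes). The medians then ran from -0.12 to 0.11 for sterol exporters, -0.11 to -0.031 for the other lipid and retinoid transporters, -0.024 to 0.13 for bile and drug exporters, -0.019 to 0.14 for the mitochondrial and lysosomal set, -0.031 to 0.022 for all 48 members and, by subfamily, -0.13 to 0.0050 for A, -0.030 to 0.059 for B, -0.031 to 0.077 for C, -0.10 to 0.026 for D, -0.061 to -0.018 for F and 0.0065 to 0.10 for G. On rows above the median level the subfamily A median was 0.048 and that of the other lipid and retinoid transporters 0.0040, over fewer genes, and with array weights the subfamily B median was 0.025. The sign of small differences turned with array weights for Abca1 (-0.042), Abca13 (-0.0035), Abca15 (0.029), Abca5 (-0.015), Abcb5 (0.045), Abcc12 (0.0034) and Abcd3 (0.041), and with a repeated quantile normalization for Abca15 (0.00088), Abca5 (-0.00069), Abcb5 (0.010) and Abcb8 (-0.057). It turned with 1 array left out, within the range given, for Abca13 (-0.028 to 0.049), Abca15 (-0.058 to 0.060), Abca5 (-0.21 to 0.17), Abcb10 (-0.060 to 0.24), Abcb4 (-0.19 to 0.11), Abcb5 (-0.063 to 0.068), Abcd3 (-0.10 to 0.045), Abca1 (-0.19 to 0.22), Abcb11 (-0.030 to 0.26), Abcc1 (-0.035 to 0.59), Abce1 (-0.13 to 0.013), Abcg4 (-0.12 to 0.28), Abcb8 (-0.075 to 0.069), Abcc12 (-0.17 to 0.048), Abcc9 (-0.38 to 0.023), Abcd2 (-0.18 to 0.082), Abcg1 (-0.034 to 0.055), Abcg3 (-0.16 to 0.25), Abca3 (-0.094 to 0.022), Abca2 (-0.17 to 0.050), Abcg2 (-0.12 to 0.35), Abcc3 (-0.0074 to 0.24) and Abcb1b (-0.17 to 0.17). The cause was not tested. The other members, Abca4, Abcc2, Abcb6 and Abcg5 among them, kept their sign under all alternatives run. Precision is limited by the 4 arrays in a group, and 16 members lie below the median array row.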

Other observations

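A few genes outside the family were chosen after their values were seen. Npc1, which exports cholesterol from lysosomes, was at 9.13, 8.56, 8.74 and 8.76 in rTF replicates 1 to 4 and 8.50, 9.03, 8.97 and 8.55 in rCPS1 replicates 1 to 4, with rTF replicate 1 and rCPS1 replicate 2 highest, as for Abcc1. Lipa, the lysosomal acid lipase, was at 11.55, 10.85, 10.92 and 10.96 and 11.08, 11.54, 11.31 and 10.92, with the same pair of arrays highest. The endothelial marker Lyve1 was at 12.17, 11.74, 12.22 and 11.88 and 11.30, 12.19, 11.94 and 11.46, with rTF replicate 3 highest and rCPS1 replicates 1 and 4 lowest, as for Abcc9. Cyp2c29, a hepatocyte P450, was at 5.76, 5.73, 4.98 and 5.95 and 6.89, 5.32, 5.97 and 6.20, and Nr1i3, the drug-sensing receptor CAR, at 4.33, 4.48, 3.36 and 4.47 and 5.27, 3.73, 5.05 and 4.53. The last 2 genes were both lowest in rTF replicate 3 and highest in rCPS1 replicate 1.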
